A study of Mus musculus with 2 samples.

Results

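The interferon-inducible GTPases are transcripts of 2 gene families, the guanylate-binding proteins (GBP) and the immunity-related GTPases (IRG), and they were compared between dendritic cells lacking the microRNA miR-155 and wild-type dendritic cells, both treated with lipopolysaccharide (LPS). The genes were chosen by name: Gbp2, Gbp3, Gbp4, Gbp6, Gbp7, Igtp, Irgm1, Irgm2, Iigp1 and Ifi47, each represented by the probe sets that the platform annotation assigns to that gene alone. Of these 10 genes, 9 had such probe sets, 13 in all, and all 9 were measured, among 11878 measured genes. Gbp4 is given no value, because its 1 probe set in the annotation is shared with Gbp8.

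The series holds 1 Affymetrix array per genotype: miR-155-/- C57BL/6J cells with LPS and wild-type C57BL/6J cells with LPS. Bone marrow cells were cultured with GM-CSF, a myeloid growth factor, at 20 ng/ml for 7 days and then moved to medium with 10 ng/ml LPS, a cell wall component of Gram-negative bacteria. There was no untreated sample, so induction by LPS was not measured, and no source used here gives the duration of LPS treatment or the number of mice per sample. The labels call the cells dendritic cells, but the growth protocol names macrophages. In a bulk sample, a change in the number of cells that carry a transcript and a change in its amount per cell cannot be told apart.

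Both families are switched on by interferons. In LPS-treated myeloid cells this runs largely through interferon beta that the cells secrete and sense themselves, and interferon gamma from lymphocytes induces the same genes strongly. GBPs are large GTPases that assemble on pathogen vacuoles and on cytosolic bacteria, where they help to expose LPS to the inflammatory caspase encoded by Casp4 in the mouse. Among the IRGs, Irgm1, Irgm2 and Igtp (also called Irgm3) are regulators that sit on the cell's own membranes and hold the effector IRGs inactive there, whereas Iigp1 (Irga6) and Ifi47 (Irgd) are effectors that load onto the membrane of pathogen vacuoles.

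The stretch before the transcription start is shown for those GBP and IRG genes whose entries in the RefSeq promoter table (build GRCm38.p6) were used. It was searched for 2 motifs known from interferon-induced genes. Entries were used for 7 of the 10 genes: Gbp2, Gbp3, Gbp7, Igtp, Irgm1, Irgm2 and Ifi47. Each sequence is written 5′ to 3′ on the strand of the gene and runs up to the base before the annotated start, except that of Gbp3, which stops where the annotated gene begins. Capitals mark the interferon-stimulated response element (ISRE), searched as GAAANNGAAA on both strands, and the gamma-activated sequence (GAS), searched as TTCNNNGAA, which reads alike on both strands. The intervals are chr3:142620553-142620662 for Gbp2, chr3:142559934-142560015 for Gbp3, chr3:142530226-142530335 for Gbp7, chr11:58199446-58199555 for Igtp, chr11:58214867-58214976 for Irgm2 and chr11:49076477-49076586 for Ifi47, all on the plus strand, and chr11:48871421-48871530 on the minus strand for Irgm1.
Gbp2: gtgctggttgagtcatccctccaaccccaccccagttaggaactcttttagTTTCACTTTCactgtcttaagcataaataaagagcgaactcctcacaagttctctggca
Gbp3: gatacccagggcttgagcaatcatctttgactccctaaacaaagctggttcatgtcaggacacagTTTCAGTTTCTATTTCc
Gbp7: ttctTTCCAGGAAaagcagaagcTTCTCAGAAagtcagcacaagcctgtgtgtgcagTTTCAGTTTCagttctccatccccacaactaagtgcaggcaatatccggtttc
Igtp: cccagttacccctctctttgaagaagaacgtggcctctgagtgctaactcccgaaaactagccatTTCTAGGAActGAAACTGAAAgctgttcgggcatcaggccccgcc
Irgm1: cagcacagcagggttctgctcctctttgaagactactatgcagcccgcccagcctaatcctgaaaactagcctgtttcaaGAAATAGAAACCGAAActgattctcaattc
Irgm2: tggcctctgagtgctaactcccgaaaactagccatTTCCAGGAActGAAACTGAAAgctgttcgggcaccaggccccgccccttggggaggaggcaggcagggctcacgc
Ifi47: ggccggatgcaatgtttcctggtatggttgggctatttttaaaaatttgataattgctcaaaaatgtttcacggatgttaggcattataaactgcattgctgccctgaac

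Iigp1 was left out of the search by choice, so the counts below do not cover it and its motifs were not examined. Of the 7 genes, 6 held an ISRE match in the full window of 250 bases before to 50 bases after a start. Over the 27025 genes in the table, the share was 3.99%. A GAS match was found in 3 of the 7, Gbp7, Igtp and Irgm2, against 9.55% of all genes. In these windows Gbp3 and Irgm1 each had 2 ISRE matches that overlap one another, and no GAS match overlapped an ISRE match. Gbp3 has a second annotated start, whose window held neither motif. A gene was counted where any of its windows held a match, also in the shares over all genes. The GBP matches read as TTTC on the printed strand and the IRG matches as GAAA. The windows of Igtp and Irgm2, neighbouring genes on chromosome 11, share an identical run of 61 bases that holds neither motif. In Igtp the run lies mostly after the start, so outside the printed sequence, and ends at the edge of the window. The printed bases just before the run are also alike in both genes, apart from single bases, and hold both motifs. Both genes have the ISRE match GAAACTGAAA, and the GAS match is TTCTAGGAA in Igtp and TTCCAGGAA in Irgm2. The matches of these 2 genes are therefore not separate finds. Neither motif was found in the window of Ifi47, which says only that these letters are not in that window. The matches are a description of sequence and not measured binding.

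The signals below are normalized intensities, made comparable by quantile normalization because the deposited arrays had no common scale. The median deposited intensity was 78.3 on the knockout array and 58.4 on the wild-type array. A floor was set at 67.6, the middle of all normalized values, and anything dimmer was raised to it. Each difference is the log2 signal of the knockout less that of the wild type. Where a gene had several probe sets, the one with the highest mean over both arrays stands for it. With a single array for each genotype, replicate spread is unknown and nothing was tested. The one measurable error is how far probe sets for 1 gene disagree, with an SD of 0.29 on the log2 scale, a factor of 1.23, and it holds no variation between mice or cultures. Mir155hg, the transcript that carries the deleted microRNA, had signals of 159 on the knockout array and 1136 on the wild-type array.

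The GBP and IRG transcripts had nearly the same signal in knockout and wild-type cells relative to the bulk of genes. Of the 9 genes, 5 were lower and 4 higher in knockout cells. Over all measured genes, 48.5% were lower and 51.5% higher, so the split of the 9 is near the background. The median difference of the 9 genes was -0.02, beside 0.01 for all measured genes, and the range was -0.17 to 0.07. No gene of the 9 differed by more than the SD between probe sets in either direction, as 32.7% of all measured genes did. None reached 2-fold, as 1.19% of all genes did (0.615% lower and 0.572% higher).

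Among the GBPs, Gbp2, a lipid-anchored GTPase that restricts Toxoplasma, had signals of 9031 in knockout and 9852 in wild-type cells at the probe set that stands for it, a difference of -0.13. Its other probe set, of the _x_at type whose probes can also bind related sequences, had 7090 in knockout and 6455 in wild-type cells, a difference of 0.14. The Gbp2 probe sets therefore lay on opposite sides of 0. Gbp3, in the same GBP cluster on chromosome 3, had 1 probe set, with 3362 in knockout and 3419 in wild-type cells, a difference of -0.02.

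Gbp7, of the same cluster, is linked to the assembly of the phagocyte oxidase on bacteria. It had 3519 in knockout and 3361 in wild-type cells, a difference of 0.07. The second Gbp7 probe set had 936 in knockout and 1248 in wild-type cells, a difference of -0.42, which is 1.33-fold lower. That was the only 1 of the 13 probe sets beyond the SD. Gbp6, which lies in the other GBP cluster, on chromosome 5, had 1829 in knockout and 2034 in wild-type cells (difference -0.15) at the probe set that stands for it. Its second probe set had 1372 in knockout and 1348 in wild-type cells, a difference of 0.03. The 4 measured GBPs had a median difference of -0.07, with 3 lower and 1 higher.

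The 3 regulatory IRGs differed by 0.07 or less in size. Igtp had 1905 in knockout and 1990 in wild-type cells, a difference of -0.06. Irgm1, whose loss in mice disturbs autophagy and the survival of blood-forming cells, had 2873 in knockout and 2832 in wild-type cells, a difference of 0.02. Irgm2 had 1111 in knockout and 1057 in wild-type cells, a difference of 0.07, the highest of the 9 genes. Each of these regulators had a single probe set, so their values have no second reading on the arrays.

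Of the effector IRGs, Ifi47 had 3279 in knockout and 3676 in wild-type cells, a difference of -0.17, the lowest of the 9 genes and a factor of 1.12. Iigp1, on chromosome 18, whereas the other 4 IRGs of the set are on chromosome 11, had 1550 in knockout and 1522 in wild-type cells, a difference of 0.03. Its second probe set had 822 in knockout and 987 in wild-type cells, a difference of -0.26, inside the SD. The median of the 5 IRGs was 0.02, with 2 lower and 3 higher. The GBPs and the IRGs overlapped in their differences.

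**Figure D1:**
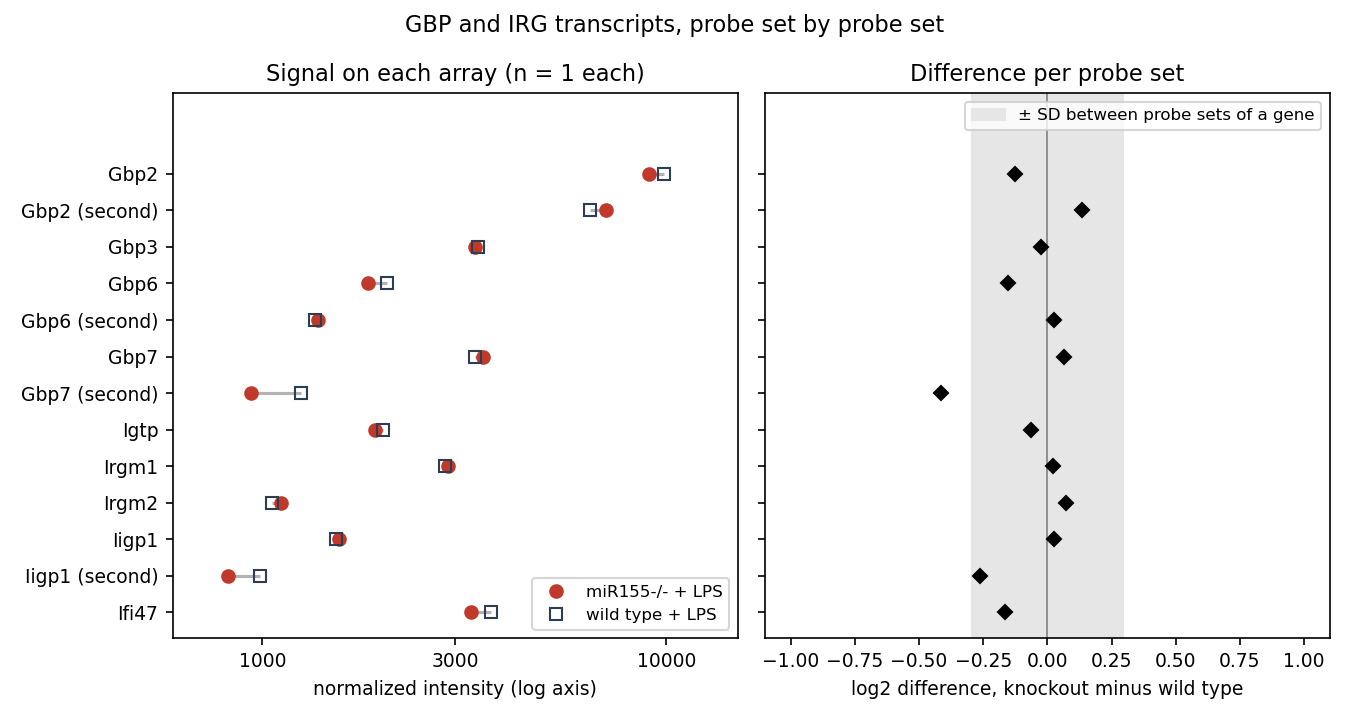
Left, the normalized intensity of each GBP and IRG probe set on the knockout array (filled circles) and the wild-type array (open squares), on a log axis; levels of different rows are not comparable, since probes differ in brightness. Right, the log2 difference, knockout minus wild type, with the SD of 0.29 between probe sets of a gene as a grey band; only the second Gbp7 probe set (-0.42) lies outside it.

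All 4 genes with 2 probe sets had them on opposite sides of 0. The gap between the 2 probe sets was 0.18 for Gbp6, 0.26 for Gbp2, 0.29 for Iigp1 and 0.48 for Gbp7. Over the 13 probe sets, 7 were lower and 6 higher, with a median difference of -0.02. Each of these gaps was larger in size than the difference of any of the 9 genes, so the sign of a single GBP or IRG gene was not settled by these arrays. The 9 genes spread little around their centre: the SD over the genes was 0.09, beside 0.34 over all measured genes, and all 9 lay between the quartiles of all measured genes, at -0.18 and 0.20. Over the 1955 measured genes whose mean signal was at least that of the Irgm2 probe set, the SD was 0.25 and the quartiles were -0.12 and 0.14, and 6 of the 9 lay between them.

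**Figure D2:**
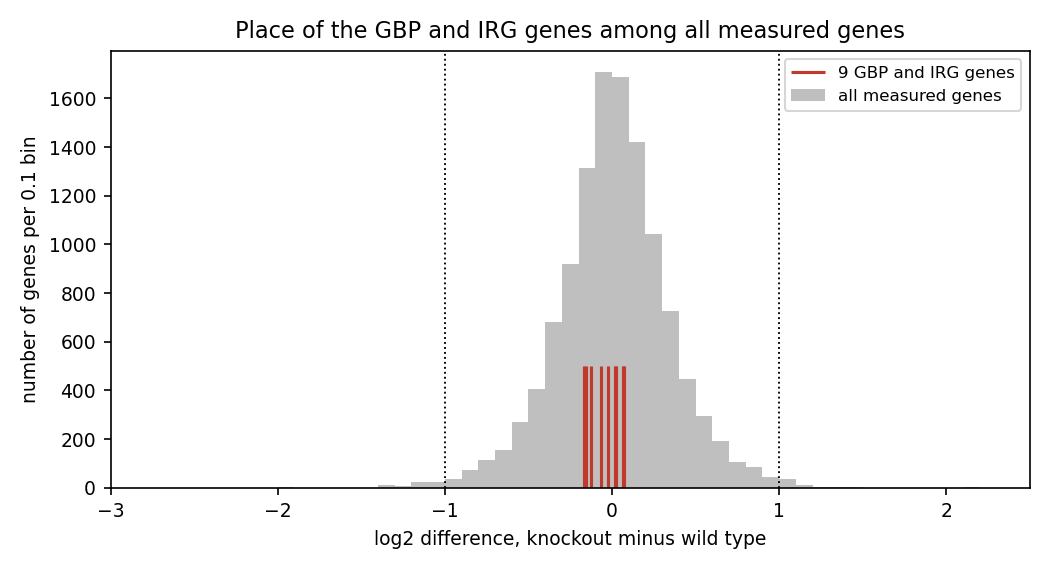
Number of measured genes in each 0.1-wide bin of the log2 difference, knockout minus wild type (grey bars, 11878 genes), with each of the 9 GBP and IRG genes as a red line of arbitrary height. Dotted lines mark 2-fold; the red lines run from -0.17 to 0.07, inside the central part of the distribution.

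On the deposited values, before any scaling, all 13 probe sets were brighter on the knockout array, by factors of 1.14 to 1.60 with a median of 1.45. The median over all probe sets of the array was 1.41, so the GBP and IRG probe sets shared the shift of the whole array. The direction of the 9 genes therefore depends on the scaling, whereas the distance of their median from that of all measured genes moved little. Single genes could move more. Gbp2 had -0.13 beside 0.01 for the median of all measured genes after quantile normalization. It had -0.31 beside -0.002 with scaling on the trimmed mean, and 0.25 beside 0.54 with no scaling. With no scaling the median of the 9 genes was 0.53 beside 0.54 for all measured genes. With scaling on the hybridisation controls, bacterial and phage transcripts added during the assay, it was 0.21 beside 0.23, and 1 of 9 genes was lower. With each array centred on its median it was 0.11 beside 0.14, and 2 of 9 were lower. Relative to the median of all measured genes, the median of the 9 lay between -0.07 and 0.00 under all 10 alternatives tried.

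**Figure D3:**
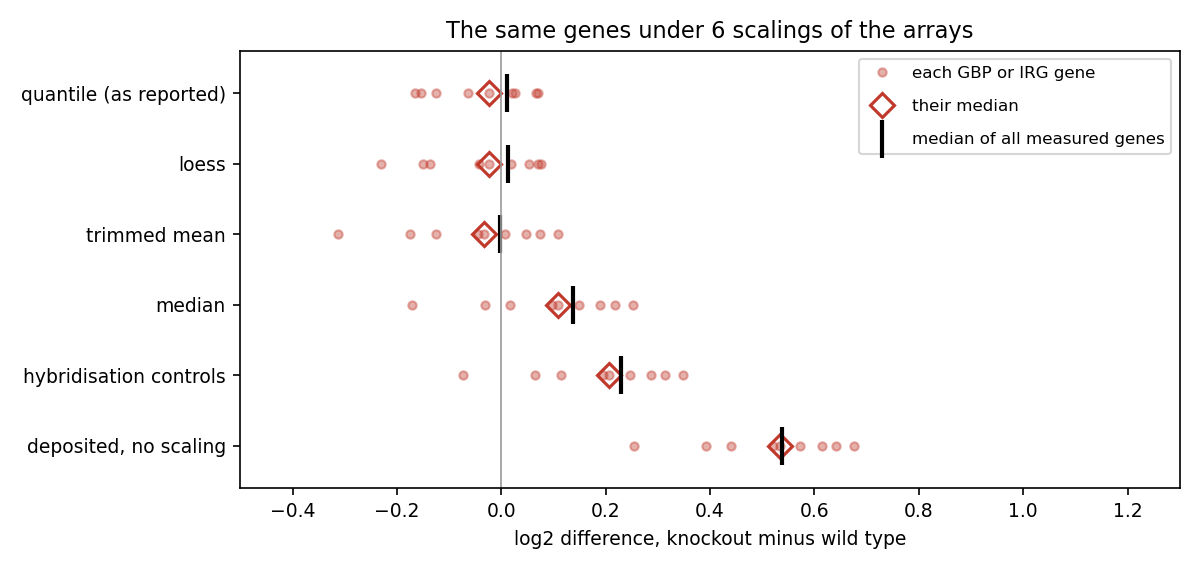
Log2 difference, knockout minus wild type, of each of the 9 GBP and IRG genes (small circles), their median (diamonds) and the median of all measured genes (black bars), under 6 scalings of the arrays. The diamonds follow the bars from 0.53 beside 0.54 on deposited values to -0.02 beside 0.01 after quantile normalization.

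Few other genes of both families were measured. Of 15 listed relatives, 4 were measured, with a median difference of -0.10, and all 4 lay within the range of the 9 genes, as 31.9% of all measured genes did. The IRG relative Gm4951 had 991 in knockout and 1089 in wild-type cells (-0.14), and Irgq, an IRG-like protein without an intact GTP-binding site, had 155 and 168 in knockout and wild-type cells (-0.12). Gbp2b, also known as Gbp1, had 184 in knockout and 196 in wild-type cells (-0.09), and Gbp8 had 973 in knockout and 943 in wild-type cells (0.05). Irgc1, a family member known from testis, lay below the floor on both arrays.

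After quantile normalization, other targets of interferon gamma did not stay as close to 0. Of 21 such genes measured, 17 were lower in knockout cells and 4 higher, with a median difference of -0.23. Over all measured genes, 48.5% were lower and 51.5% higher. By more than the SD, 8 were lower and 1 higher, where the background was 15.7% lower and 17.0% higher. Of the 21, 15 lay below the lowest GBP or IRG gene, as 26.7% of all measured genes did, 4 lay within the range of the 9, against the background of 31.9%, and 2 above it, as 41.4% did. Cd40, a co-stimulatory receptor, had 1436 in knockout and 2933 in wild-type cells (-1.03), with 3 of 3 probe sets lower. Cxcl10, a T-cell-attracting chemokine, had 2236 in knockout and 4481 in wild-type cells, just past 2-fold lower. Cxcl11, another ligand of the same receptor, had 288 in knockout and 452 in wild-type cells (-0.65). Ido1, a tryptophan-degrading enzyme, had 68.2 in knockout cells, at the edge of the floor, and 100.1 in wild-type cells (-0.55). Closeness to 0 depends on the scaling. With scaling on hybridisation controls the median of the 21 genes was 0.005, beside 0.21 for the 9 GBP and IRG genes. With each array centred on its median it was -0.09 beside 0.11, and with no scaling 0.33 beside 0.53. In these settings the 21 genes had the median closer to 0, and it still lay below that of the 9. No test of the difference between the lists was made.

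Antiviral genes of the type I interferon response were between these. Of 26 measured, 20 were lower and 6 higher, with a median difference of -0.10, where 48.5% of all measured genes were lower. By more than the SD, 3 were lower and 0 higher, against 15.7% lower and 17.0% higher over all measured genes. Of the 26, 15 lay within the range of the 9 GBP and IRG genes, 9 below it and 2 above. The shares of all measured genes were 31.9% within, 26.7% below and 41.4% above. Ifit1, which binds viral RNA caps, had 4430 in knockout and 5637 in wild-type cells (-0.35). Ddx58, an RNA sensor gene, had a difference of -0.35, with 1 of 3 probe sets lower, Xaf1 had -0.34 and Ifih1, another RNA sensor gene, had -0.28. Mx1 and Mx2, dynamin-like antiviral GTPases related to the GBPs, were looked up after their values were seen. Mx1 had 2598 in knockout and 2700 in wild-type cells (-0.06), and Mx2 had 445 in knockout and 367 in wild-type cells (0.28).

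**Figure D4:**
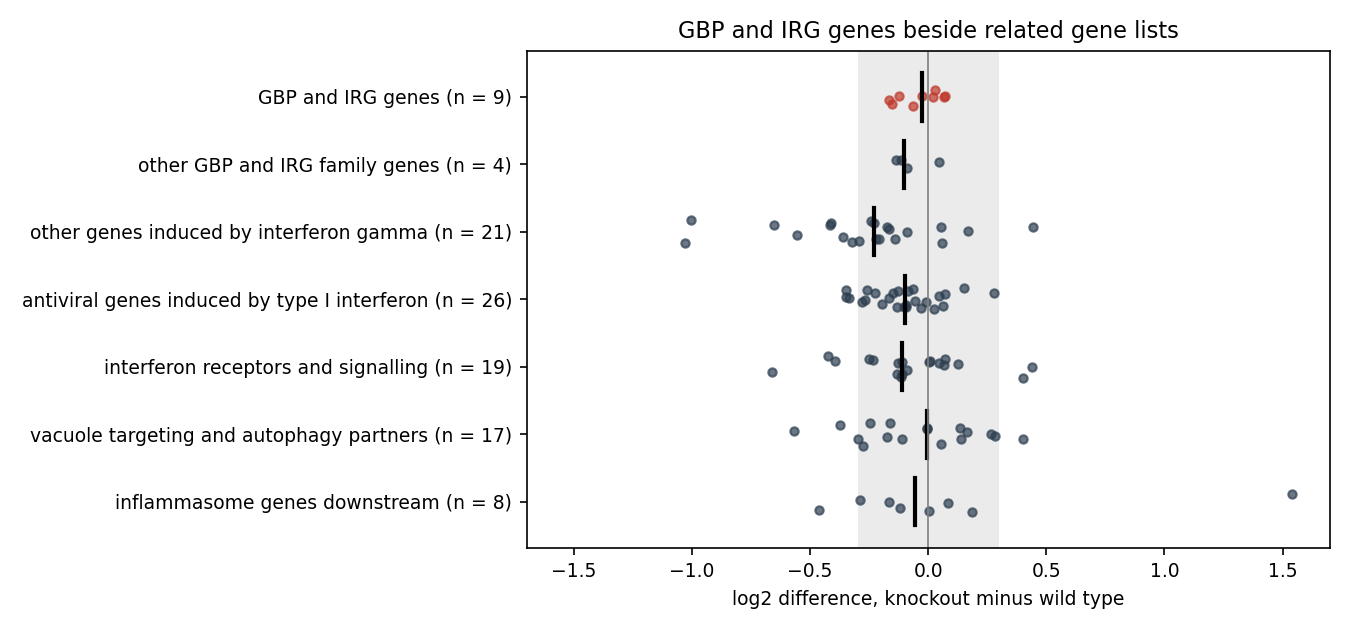
Log2 difference, knockout minus wild type, of each measured gene (points) in the GBP and IRG set and in 6 related lists, with the list median as a black bar and the SD of 0.29 between probe sets as a grey band. The 9 GBP and IRG genes lie from -0.17 to 0.07, and the other genes induced by interferon gamma reach from -1.03 to 0.44.

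Among the interferons themselves, Ifng lay below the floor on both arrays, and Ifnb1, at 84.9 in knockout and 81.1 in wild-type cells, lay close to the floor. Of 19 measured genes of interferon reception and signalling, 11 were lower and 8 higher, with a median of -0.11. The shares over all measured genes were 48.5% lower and 51.5% higher. By more than the SD, 3 were lower and 2 higher, shares near or under the background of 15.7% lower and 17.0% higher. The receptor chain gene Ifngr1 had 536 in knockout and 396 in wild-type cells (0.44). Ifnar1, a chain of the type I receptor, had 1391 in knockout and 1054 in wild-type cells (0.40), but its second probe set had 348 in knockout and 514 in wild-type cells (-0.56).

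Of the transcription factors on that list, Irf8, Stat2 and Irf1 were lower in knockout cells, and Irf2 (0.12) and Irf9 (0.01) were not. Irf8, which directs the development of some dendritic cells, had 2874 in knockout and 4551 in wild-type cells (-0.66), with 2 of 2 probe sets lower. Stat2, part of the complex that binds the ISRE, had 898 in knockout and 1207 in wild-type cells (-0.43), again with 2 of 2 probe sets lower. Irf1, which acts at GBP promoters, had 1005 in knockout and 1100 in wild-type cells (-0.13), inside the range of the 9 genes.

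Partners in vacuole targeting and autophagy had a median of 0.00 over 17 measured genes, with 10 lower and 7 higher. For this list and the next, the background was 48.5% lower and 51.5% higher. The LC3-like gene Gabarapl2 had 627 in knockout and 930 in wild-type cells (-0.57), and Pggt1b, a prenyltransferase subunit gene, had 394 in knockout and 510 in wild-type cells (-0.37). Traf6, a ubiquitin ligase gene, had a difference of -0.30, with 2 of 4 probe sets lower. Lgals8, a galectin that marks broken vacuoles, had 1527 in knockout and 1157 in wild-type cells (0.40). In the inflammasome list, 4 of 8 measured genes were lower and 4 higher, with a median of -0.06. Aim2, a cytosolic DNA sensor that GBPs help to activate during infection, had 197 in knockout cells and was at the floor in wild-type cells, at least 2.91-fold higher. Il18 had a difference of -0.46, Nlrp3 -0.29 and Casp1 0.18, and Casp4 had 1440 in knockout and 1564 in wild-type cells (-0.12).

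Markers of other cells were set beside these values. Over all measured genes, 48.5% were lower and 51.5% higher. All 15 dendritic cell markers were measured, 13 of them lower, with a median of -0.18. By more than the SD 6 were lower and 2 higher, against 15.7% lower and 17.0% higher over all measured genes. The 6 were Zbtb46, Ccr7, Cd83, Cd86, Ccl22 and Ccl17. The 2 were Itgax and Flt3, with Flt3 at the floor in wild-type cells. The summed normalized intensity of the 15 was 70660 in knockout and 84949 in wild-type cells. Of 10 measured macrophage markers 8 were higher, with a median of 0.20 and sums of 41831 in knockout and 40851 in wild-type cells. T and NK cells are the usual source of interferon gamma. Of their 12 markers named on the array, 4 were above the floor on at least 1 array, with sums of 413 in knockout and 405 in wild-type cells, and Cd3d, Cd3e, Cd3g, Cd2, Nkg7, Ncr1, Gzma and Gzmb were below it on both. Of 6 measured B and plasma cell markers, 3 of which were at the floor on the knockout array, 5 were lower, with a median of -1.23. By at least 2-fold, as 1.19% of all measured genes, 3 of the 6 differed. Among them, Ighm, with 5 of 8 probe sets lower, had 142 in knockout and 734 in wild-type cells, and Jchain had 92.6 in knockout and 436 in wild-type cells. The sums of that list, 2328 in knockout and 3444 in wild-type cells, rest largely on Blnk, which had 1890 in knockout and 1823 in wild-type cells. All 6 measured mast cell and basophil markers were lower, with a median of -0.69 and sums of 1853 in knockout and 3317 in wild-type cells. Of these, 3 (Mcpt8, Cpa3 and Ms4a2) were at the floor on the knockout array. The sums rest largely on Hdc, which had 1411 in knockout and 2624 in wild-type cells. Of 10 granulocyte markers 8 were lower, with a median of -0.35, while their sums were 13160 in knockout and 11211 in wild-type cells. These sums rest largely on the 2 higher genes. S100a8 had 6093 in knockout and 4517 in wild-type cells, and Mmp8 had 4845 in knockout and 3736 in wild-type cells. The part of these cells in the GBP and IRG values was not tested.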

How the data were processed

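Total RNA was extracted with Trizol and labelled with biotin for an Affymetrix array, per the labels' protocols. The authors deposited linear signal intensities of 45101 probe sets on each array. No source used here gives the algorithm, scaling or detection calls behind them. The medians differed by 34.1%, more than the 10% chosen as the limit for scaling, so the log2 values of the 45037 probe sets other than controls were quantile normalized, which removes any difference in total signal. Of these, 34945 named 1 gene in the platform annotation, 932 several and 9160 none. Names were updated through the gene identifier (GRCm38.p6). A gene above the floor on either array counted as measured. The SD between probe sets used 11653 probe sets of 4410 genes above the floor on both arrays. No p-value was computed, and the number of arrays limits the precision.

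The genes and related lists were chosen with earlier results of these data known. From each related list the up to 4 genes with the largest absolute difference were named, and in the signalling list also Ifng, Ifnb1, Stat2, Irf1 and Irf8. Marker lists are given as counts and sums, with single genes named where they weigh on these. Alternatives were 5 scalings, 2 floors and 3 rules for the probe set. The functions were tested on simulated data. Python 3.11.15, pandas 2.3.3 and statsmodels 0.14.6 (loess, span 0.3) were used.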

Additional observations from a re-analysis of the deposited data

How the results depend on the processing

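With no scaling, the median of the 9 GBP and IRG genes was 0.53 and 0 of 9 were lower in knockout cells. In that setting the medians were 0.54 for all measured genes, 0.46 for the other GBP and IRG family genes, 0.50 for interferon receptors and signalling, 0.33 for other genes induced by interferon gamma, 0.43 for type I interferon antiviral genes, 0.52 for vacuole targeting and autophagy partners and 0.52 for inflammasome genes; by construction this setting keeps the shift of the whole array. The number of lower GBP and IRG genes was 2 with centring on the median and 1 with scaling on hybridisation controls. In the other 7 alternatives it was 5 or 6. Over the 9 alternatives that scale the arrays, the median of the 9 genes ran from -0.06 to 0.21. The difference of Gbp2 ran from -0.31, with scaling on the trimmed mean, to 0.00, with averaged probe sets. That value of -0.31 is beyond the SD of 0.29, in a setting where the median of all measured genes was -0.002. In the other direction, Irgm2 (0.35) and Iigp1 (0.31) were beyond it with scaling on hybridisation controls. There the median of all measured genes was itself 0.23, and both genes lay closer to that median than the SD. The cause was not tested. The median of the 9 genes minus that of all measured genes, an alternative scale chosen after seeing the data, ran from -0.07 to 0.00 over all 10 alternatives. T and NK cell markers have no value with the floor at the 75th percentile. No paired analysis was possible because each genotype has 1 array. The floor and the 1 array per genotype limit what can be said of dim transcripts such as Ifnb1.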
